A study of Canis lupus familiaris with 22 samples.

Results

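Collagen genes were compared between canine invasive urothelial carcinoma (iUC) and normal canine bladder. A gene was counted as a collagen when its symbol in the platform annotation had the form COL, a type number, A and a chain number, and when that symbol was the only one of a probe set. This gave 36 genes, read by 97 probe sets, of 15115 genes measured. A probe set is a group of short probes that reports a transcript, and the mean of its probe sets was taken for each gene. The 36 genes comprise 10 fibrillar, 6 basement membrane, 8 FACIT, 4 transmembrane, 3 beaded filament and 2 network-forming collagens, with COL15A1 (a multiplexin), COL7A1 (anchoring fibril) and COL26A1. For 9 further collagen genes, among them COL6A2, COL11A1 and COL18A1, no probe set carried that symbol alone, and they were not analysed here.

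RNA of 18 iUC samples and 4 normal bladder samples was hybridised to Affymetrix Canine 2.0 arrays, with 1 array for each sample and 5 µg of RNA for each array. The iUC samples were biopsies taken through a cystoscope before therapy from pet dogs with naturally occurring tumors that were high grade on histopathology. Normal bladder was taken from healthy, age-matched dogs without tumors, and the labels do not say which layers of the bladder wall a sample holds. The labels call the samples biological replicates.

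Collagens are proteins of the extracellular matrix whose chains wind around each other into a helix. Fibrillar collagens form the tensile fibers of connective tissue, basement membrane collagens form the sheet under epithelia and around vessels and muscle cells, FACIT collagens sit on the surface of fibers, and transmembrane collagens span the cell membrane. In the bladder wall the fibers lie in the lamina propria and between the muscle bundles, where fibroblasts and smooth muscle cells make most of them, and the urothelium rests on a basement membrane.

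The deposited values are log2 values from which each probe set's median over the 22 arrays was subtracted. A value of 0 is thus the midpoint of the 22 samples for that gene, and the levels of different genes cannot be compared. Array medians lay between -0.0276 and 0.0584, and the number of arrays, 4 in the smaller group, limits the precision. A gene was called higher or lower when its adjusted p in limma, with Benjamini-Hochberg adjustment over all 15115 genes, was 0.05 or below and its fold change was 2 or more. Over all genes, 8.64% were called lower in iUC and 3.68% higher, 12.3% in either direction. The fit gives each gene a common variance in both groups. Where the 4 normal samples spread more than the tumors, the standard error (SE) thus tends to be too small and the p too low. Normal bladder replicates 3 and 4 correlated at 0.934 over all probe sets, against at most 0.761 for the other pairs of normal samples. The iUC arrays fell into 11 with a low and 7 with a high signal of the Tag control probe sets, which match no dog transcript. The mean Tag value was -0.128 to 0.131 in the former and 0.277 to 0.460 in the latter, and -0.215 to -0.0768 in the normal samples.

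Of the 36 collagen genes, 7 were lower in iUC and 0 were higher, while 29 were not called. The 7 were the fibrillar collagens COL5A2, COL1A2, COL1A1 and COL3A1, the basement membrane collagen COL4A6, the beaded filament collagen COL6A1 and the FACIT collagen COL14A1. The called share was 19.4% of the collagens. At an unadjusted p under 0.05, 11 collagens (30.6%) were higher and 12 (33.3%) lower, against 27.0% and 21.7% of all genes, and 0 of the 11 reached 2-fold. An unpaired test of each gene, of the kind the study used for its cross-species gene list, also called 0 collagens higher. The median log2 fold change was 0.09 over the 36 genes and 0.08 over all genes, and 20 of the 36 values were above 0. 

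**Figure D1:**
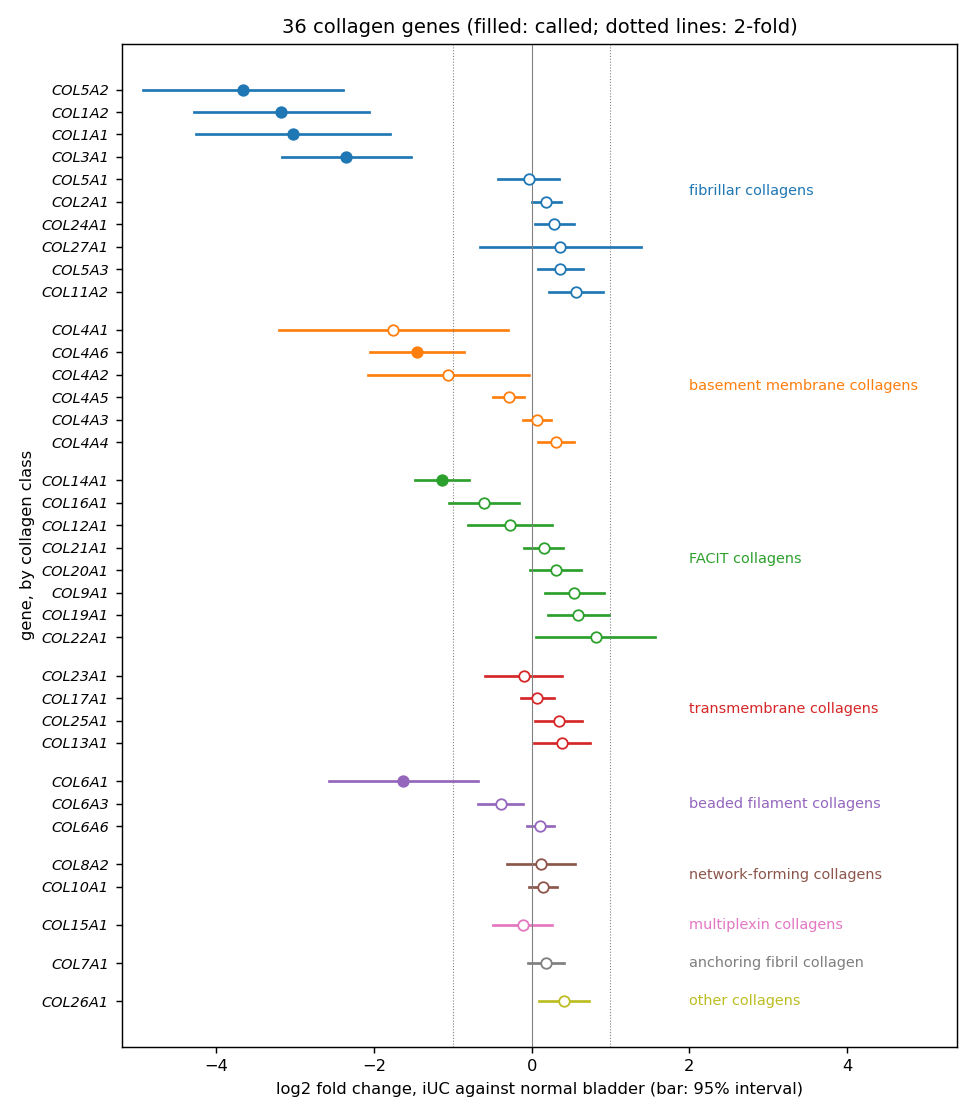
Log2 fold change of iUC against normal bladder (horizontal axis) for each of the 36 collagen genes (vertical axis, grouped and coloured by class), with bars for the 95% interval and filled points for called genes. The 4 fibrillar collagens at the top lie between -3.66 and -2.35, while 20 of the 36 values lie above 0.

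Type I collagen, the main fiber-forming protein of connective tissue, is built from the chains of COL1A1 and COL1A2. COL1A1 values in normal bladder replicates 1 to 4 were 4.27, 1.46, 3.12 and 2.49. In iUC the lowest value was -2.17, the median -0.17 and the highest 2.68. All but 1 of the iUC samples lay below every normal sample, the exception being iUC replicate 12. The log2 fold change was -3.03 (SE 0.59, 8.14-fold, limma adjusted p = 0.000572), with a 95% interval from -4.25 to -1.80. COL1A2 values were 3.02, 2.01, 3.47 and 3.34 in normal bladder, and -2.01, -0.16 and 2.43 as the lowest, median and highest in iUC. Here again 17 of 18 iUC samples were below every normal sample and replicate 12 overlapped them. COL1A2 fell by 3.17 on the log2 scale (SE 0.53, 9.02-fold, limma adjusted p = 0.000126).

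COL3A1 encodes the chain of type III collagen, which forms finer fibers together with type I in distensible organs. Its values in normal bladder were 2.27, 1.22, 2.78 and 2.48, and those in iUC ran from -1.21 through a median of -0.31 to 1.14. It was the 1 collagen gene with no overlap, all 18 iUC samples lying below all 4 normal samples, a separation that 4.47% of all genes showed in this direction. In the other direction, which 3.22% of all genes showed, there were 0 collagens. COL3A1 fell by 2.35 on the log2 scale (SE 0.39, 5.09-fold, limma adjusted p = 0.000126).

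COL5A2 encodes a chain of type V collagen, which is built into type I fibers and helps to set their diameter, and it had the largest fold change of the 36 genes. Its values in normal bladder were 3.60, 1.84, 4.48 and 4.31, against a lowest of -1.40, a median of -0.39 and a highest of 2.42 in iUC. The iUC samples in the range of the normal samples were 2, replicates 11 and 12, and the other 16 were lower. COL5A2 fell by 3.66 on the log2 scale (SE 0.61, 12.7-fold, limma adjusted p = 0.000124). COL5A1, whose chain joins that of COL5A2 in type V collagen, had values of 0.36, -0.56, 0.11 and 0.18 in normal bladder and of -0.82 to 0.63 in iUC. The groups overlapped, and the log2 fold change of COL5A1 was -0.04 (SE 0.19, limma adjusted p = 0.879). For the mean signal of its 4 probe sets, the interval of -0.43 to 0.35 leaves out a 2-fold change. Whether that signal was near background cannot be seen from centred values. The probe sets ran from -0.68 (SE 0.51) to 0.22, and the sign of COL5A1 turned in other settings given below. After quantile normalization of the deposited values the 4 falls were smaller, at -2.30 for COL5A2, -2.05 for COL1A2, -2.0 for COL1A1 and -1.52 for COL3A1, with limma adjusted p of 0.0181, 0.0167, 0.0324 and 0.0266.

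The remaining fibrillar collagens, COL2A1, COL5A3, COL11A2, COL24A1 and COL27A1, had log2 fold changes of 0.19 to 0.56. COL11A2, a chain of the type XI collagen known from cartilage, was the highest, at 0.56 (SE 0.16, limma adjusted p = 0.0118), below the 2-fold threshold. The median over the 10 fibrillar genes was 0.07, and 4 were called lower and 0 higher.

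**Figure D2:**
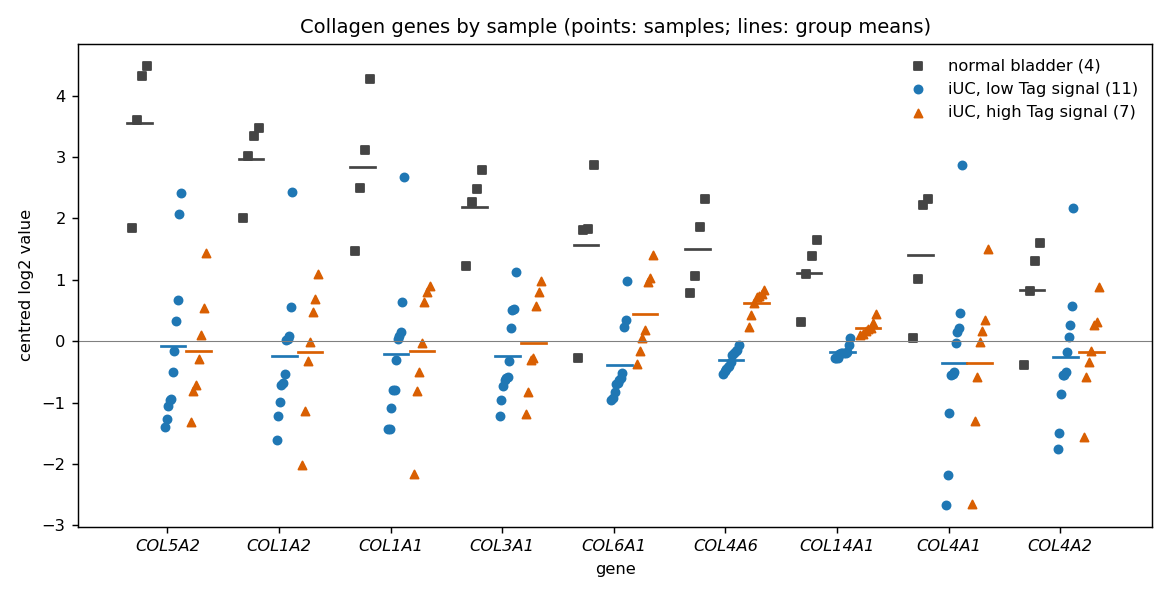
Centred log2 value (vertical axis) of the 7 called collagen genes and of COL4A1 and COL4A2 (horizontal axis) in each sample, with lines for group means. Squares are the 4 normal bladder samples, circles the 11 iUC samples with low Tag signal and triangles the 7 with high Tag signal. For the 4 fibrillar genes both sets of iUC samples lie in the same range, while for COL4A6 and COL14A1 the triangles lie above the circles.

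Basement membrane collagens are encoded by 6 genes that lie as head-to-head pairs, COL4A1 with COL4A2, COL4A3 with COL4A4 and COL4A5 with COL4A6. COL4A6 was called. Its values in normal bladder were 1.06, 0.78, 1.86 and 2.32, against a lowest of -0.54, a median of -0.15 and a highest of 0.83 in iUC. Only 1 iUC sample, replicate 18, reached the lowest normal sample. COL4A6 fell by 1.45 on the log2 scale (SE 0.29, 2.74-fold, limma adjusted p = 0.000618). COL4A5, its partner, had a log2 fold change of -0.29 (SE 0.09, limma adjusted p = 0.0219) and did not reach 2-fold.

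The chains of COL4A1 and COL4A2 make the form of type IV collagen that is found in nearly all basement membranes, those of blood vessels included. COL4A1 values were 1.01, 0.05, 2.22 and 2.32 in normal bladder and ran from -2.67 through -0.26 to 2.87 in iUC. The highest sample of the 22 was a tumor, iUC replicate 12, and 7 of the 18 iUC samples were not below the lowest normal sample. The log2 fold change was -1.76 (SE 0.70, 3.38-fold), with an adjusted p of 0.0541 in limma, just past the threshold. Without normal bladder replicate 2, the lowest normal sample, COL4A1 and COL4A2 were both called lower. COL4A2 ranged from -0.39 to 1.60 in normal bladder and from -1.76 to 2.17 in iUC, with a log2 fold change of -1.06 (SE 0.49, limma adjusted p = 0.0919). COL4A3 and COL4A4, whose chains are best known from the kidney filter, had log2 fold changes of 0.07 (limma adjusted p = 0.533) and 0.31 (limma adjusted p = 0.0324). Over the 6 genes the median was -0.67.

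Of the FACIT collagens, COL14A1, which binds to type I fibers, was called lower and the other 7 were not. COL14A1 values were 1.10, 0.31, 1.65 and 1.38 in normal bladder, against -0.28, -0.12 and 0.44 as the lowest, median and highest in iUC. Of the iUC samples, 17 lay below every normal sample. COL14A1 fell by 1.13 on the log2 scale (SE 0.17, 2.19-fold, limma adjusted p = 2.94e-05), passing the 2-fold threshold only narrowly. Its standard deviation was 0.58 in normal bladder and 0.22 in iUC, so this adjusted p is likely too low. At the other end of the class was COL22A1, known from tissue junctions such as that of muscle and tendon, with a log2 fold change of 0.81 (SE 0.37, limma adjusted p = 0.0826). The class median was 0.23. COL14A1 and COL15A1 also stand in a gene list of the study, which required a 2-fold difference in both dogs and humans. It was chosen partly on these samples, so their place in it is not independent evidence of their direction. COL15A1 did not reach 2-fold here by the mean of its probe sets (-0.11), while 1 of the 4 did (-1.45). COL1A1, COL1A2, COL3A1 and COL5A2 do not stand in that list, which says nothing of dogs alone. All of them stand in the study's supplement in a gene set (UV_RESPONSE_DN) from its enrichment analysis of the canine samples. No direction of single genes is given there.

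COL6A1 encodes a chain of type VI collagen, which forms beaded filaments around cells. Its values in normal bladder were 2.87, -0.27, 1.81 and 1.83, and those in iUC ran from -0.95 through -0.27 to 1.40. Normal bladder replicate 2 lay at the iUC median, so that 9 iUC samples were below all normal samples and 9 were not. The log2 fold change was -1.63 (SE 0.46, 3.09-fold, limma adjusted p = 0.00953), and the call was lost without normal bladder replicate 1 and after quantile normalization (-1.13, limma adjusted p = 0.159). The standard deviation of COL6A1 was 1.32 in normal bladder and 0.75 in iUC, so its limma adjusted p of 0.00953 is likely too low. COL6A3, another chain of type VI collagen, had a log2 fold change of -0.39 (SE 0.14, limma adjusted p = 0.0313), and COL6A6 one of 0.11. The class median over these 3 genes was -0.39.

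None of the 4 transmembrane collagens was called, and their median was 0.21. COL17A1, part of the hemidesmosome that fixes epithelial cells to the basement membrane, had values of 0.21, -0.07, -0.15 and -0.06 in normal bladder and of -0.33 to 0.34 in iUC. The normal values lay inside the range of the tumors. Its log2 fold change was 0.07 (SE 0.10, limma adjusted p = 0.589), with an interval of -0.14 to 0.28 that leaves out a 2-fold change in the mean signal of its probe sets. Centred values do not show whether that signal was near background. COL23A1 was lowest of the class at -0.10 and COL13A1 highest at 0.38 (limma adjusted p = 0.0812). COL7A1, whose chain forms the anchoring fibrils under the basement membrane, had a log2 fold change of 0.18 (SE 0.11, limma adjusted p = 0.178). COL15A1, a multiplexin of basement membrane zones, had one of -0.11 (SE 0.18, limma adjusted p = 0.633). COL8A2 stood at 0.12, COL10A1 at 0.15 and COL26A1 at 0.41 (limma adjusted p = 0.0437).

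Among the collagens not called, 6 passed the adjusted p without reaching 2-fold in the higher direction (COL5A3, COL11A2, COL9A1, COL19A1, COL4A4 and COL26A1) and 3 in the lower (COL16A1, COL4A5 and COL6A3). Over all genes, such small differences made up 14.5% in the higher and 8.87% in the lower direction, so the collagens' shares of 6 and 3 in 36 were near the background.

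The probe sets of a collagen gene did not always agree. At the level of probe sets, 23 of the 97 were called lower and 2 higher, against 10.8% and 4.56% of all named probe sets. All 3 probe sets of COL1A1, all 4 of COL1A2 and both of COL5A2 and COL6A1 were called lower, as were 4 of 5 for COL3A1. For COL14A1 only 3 of 8 were called, with log2 fold changes from -3.42 to 0.05. For COL4A6 the call came from 1 of 2 probe sets, at -2.76 against -0.14. COL16A1, a FACIT collagen not called by the mean (-0.61) or the median (0.25) of its probe sets, had a probe set at -2.69 (SE 0.26, limma adjusted p = 1.06e-07 over probe sets) and others at 0.31 and 0.56. In that probe set all normal samples, at 2.17 to 2.99, lay above all iUC samples, the highest of which was 0.87. COL15A1 likewise had 1 of 4 probe sets called lower, at -1.45, with the others between 0.26 and 0.38. The probe sets called higher belonged to COL19A1 (1.00) and COL25A1 (1.08), each beside others that were not called. In 12 of the 30 genes with 2 or more probe sets the log2 fold changes spread over more than 1 unit, and in 0 were probe sets called both ways.

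**Figure D3:**
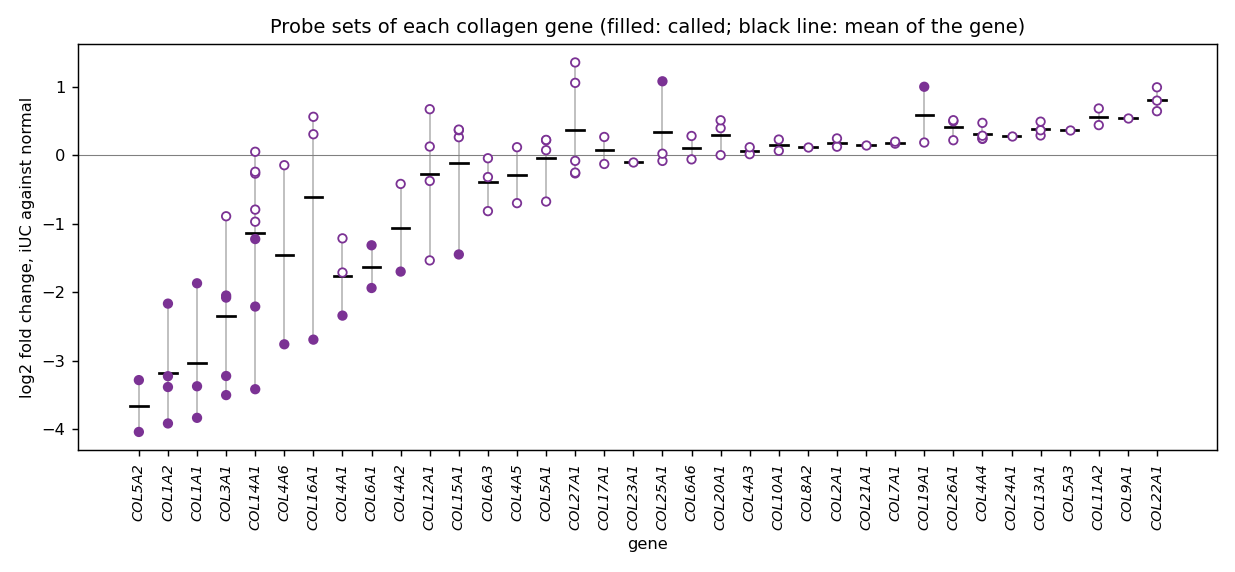
Log2 fold change of iUC against normal bladder (vertical axis) for each probe set of the 36 collagen genes (horizontal axis), with filled points for called probe sets and a black line for the mean of the gene. COL1A1, COL1A2 and COL5A2 have every probe set below -1.8, while COL14A1, COL16A1 and COL4A6 each have a probe set below -2.6 and at least 1 between -0.3 and 0.6.

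A few collagens were among the most variable genes in the tumors. The standard deviation over the 18 iUC samples was 1.37 for COL4A1, at percentile 99.3 of all genes, and COL5A2, COL1A1, COL1A2, COL27A1 and COL4A2 stood at percentiles 98.4, 98.1, 97.5, 96.9 and 95.6. COL3A1 stood at percentile 89.3, and COL5A1, COL5A3 and COL15A1 at 50.2, 37.9 and 48.2. The median collagen, with a standard deviation of 0.330, varied as the median gene did (0.335). Of the 6 genes COL1A1, COL1A2, COL3A1, COL5A2, COL4A1 and COL4A2, iUC replicate 12 was the highest tumor in 5, and replicates 15 and 7 were the lowest in 4 and 2. Replicate 11 broke this order, with the highest COL5A2 value of the tumors, 2.42, beside -0.79 for COL1A1, -0.53 for COL1A2 and -0.60 for COL3A1. COL3A1 and COL5A2 are next to each other in the reference annotation, and their values parted in this tumor.

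Partner chains were compared across the iUC samples, separately for the 11 arrays of low and the 7 of high Tag signal, since these form separate clusters. In all, 10 relations were tested by permutation, each by r and by rho. The p of r and the p of rho were adjusted separately, each over the 10 relations. Chains of different molecules were not set against each other, so a high correlation is not shown to be particular to partners. COL1A1 and COL1A2 rose and fell together, with Pearson's r of 0.981 (permutation p = 2e-05, adjusted 0.0001) and Spearman's rho of 0.955 (permutation p = 2e-05, adjusted 0.0001) in the 11 samples. In the 7 samples r was 0.914 (exact permutation p = 0.00456, adjusted 0.0114) and rho 0.893 (exact permutation p = 0.0123, adjusted 0.0308). Without the 2 samples farthest from the median of COL1A1, r was 0.934 and 0.713. COL4A1 and COL4A2 gave r = 0.986 and rho = 0.982 in the 11 samples (permutation p = 1e-05 for both, adjusted 0.0001, the smallest that the permutations can give). In the 7 samples r was 0.989 (exact permutation p = 0.000198, adjusted 0.000661) and rho was 1 (exact permutation p = 0.000397, adjusted 0.00132). Without the 2 farthest samples r was 0.955 and 0.938.

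In the other 3 pairs 1 relation passed an adjusted p of 0.05, the rho of COL4A3 with COL4A4 in the 7 samples. COL5A1 and COL5A2 had r = 0.174 (permutation p = 0.601, adjusted 0.659) and rho = 0.0273 (permutation p = 0.945) in the 11 samples, and r = -0.597 (exact permutation p = 0.157, adjusted 0.224) and rho = -0.75 (exact permutation p = 0.0663, adjusted 0.11) in the 7. Without the 2 farthest samples r was 0.178 and -0.521. COL4A5 and COL4A6 had r = 0.48 and rho = 0.336 in the 11 samples and r = 0.408 and rho = 0.571 in the 7, with two-sided permutation p of 0.133, 0.315, 0.368 and 0.2, and r of 0.257 and -0.236 without the 2 farthest samples. COL4A3 and COL4A4 had r = 0.15 and rho = 0.491 in the 11 samples (permutation p = 0.659 and 0.131) and r = 0.649 and rho = 0.857 in the 7 (exact permutation p = 0.118 and 0.0238, adjusted 0.222 and 0.0476), falling to r = 0.387 and 0.521 without the 2 farthest samples. All permutation tests were two-sided.

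**Figure D4:**
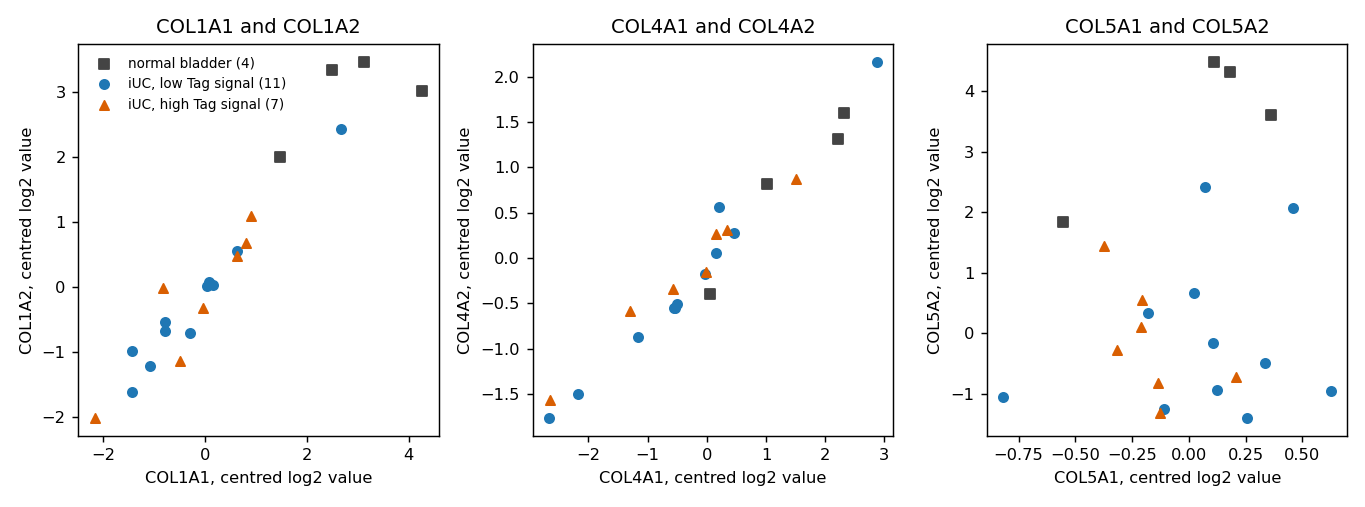
Centred log2 values of partner chains, the chain named second (vertical axis) against the chain named first (horizontal axis), for COL1A1 with COL1A2, COL4A1 with COL4A2 and COL5A1 with COL5A2. Squares are normal bladder, circles iUC with low and triangles iUC with high Tag signal. The points of the type I and type IV pairs follow a line, with r from 0.914 to 0.989 within the iUC sets, and those of the type V pair scatter.

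COL27A1, a fibrillar collagen known from cartilage and described here because of its values, was high in a few tumors. Its gene values were 2.99 in iUC replicate 16, 2.93 in replicate 11, 1.47 in replicate 15, 0.90 in replicate 4 and 0.87 in replicate 12. The other 13 tumors lay between -0.16 and 0.26, and the normal samples between 0.00 and 0.33. This came from 2 of its 5 probe sets. The first read 7.65 in replicate 11, 7.57 in replicate 16, 5.10 in replicate 15, 3.30 in replicate 12 and 2.79 in replicate 4. The remaining tumors lay between -0.50 and 0.32 in this probe set, and normal bladder reached at most 0.67. The second read 6.84, 6.29, 3.11, 1.19 and 1.28 in the same order of samples. The other 3 probe sets lay between -0.35 and 0.53 in all iUC samples, so a high value of the gene rests on the 2 probe sets alone. Over the groups, the log2 fold change of COL27A1 was 0.36 (SE 0.49, limma adjusted p = 0.564).

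The Tag signal of an array moved with the collagen values inside the tumor group. The mean was higher in the 7 high-Tag than in the 11 low-Tag samples for 32 of 36 collagens (88.9%), against 49.1% of all genes. This was not particular to collagens. In marker lists given below, the share was 100% for pericyte, 90% for smooth muscle, 88.9% for endothelial and 70% for fibroblast markers. It was 7.69% for urothelium markers. In 11 collagens every high-Tag sample lay above every low-Tag sample, a pattern that 15.9% of all genes showed and that 30.6% of collagens showed. Of these 11, 6 were FACIT collagens (COL14A1, COL16A1, COL20A1, COL9A1, COL19A1 and COL22A1). COL22A1 ran from -0.27 to 0.29 in the low-Tag and from 1.05 to 1.65 in the high-Tag samples, against -0.49 to -0.02 in normal bladder. The high-Tag arrays also had lower control signal for GAPDH and actin (mean of 7 probe sets), -1.28 to -0.48 against -0.79 to 0.38 in the low-Tag arrays, and a wider spread of values, with a standard deviation over probe sets of 0.547 to 0.797 against 0.368 to 0.502. In normal bladder these were -0.55 to 0.41 and 0.652 to 1.01. The part of these array signals in the collagen values was not tested.

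Set against the same 4 normal samples, the 11 low-Tag tumors gave the same 7 genes as called lower and 0 higher, where 5.96% and 5.23% of all genes were called. The 7 high-Tag tumors gave 5 lower (COL5A2, COL1A2, COL1A1, COL3A1 and COL4A1) and 2 higher (COL22A1 at 1.69 and COL19A1 at 1.01), where 17.4% and 7.16% of all genes were called. The 4 fibrillar genes had nearly the same log2 fold change in both, -3.63 and -3.71 for COL5A2, -3.20 and -3.14 for COL1A2, -3.04 and -3.00 for COL1A1 and -2.43 and -2.22 for COL3A1. The 2 sets of tumors share their controls, and the difference between these fold changes was not tested.

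**Figure D5:**
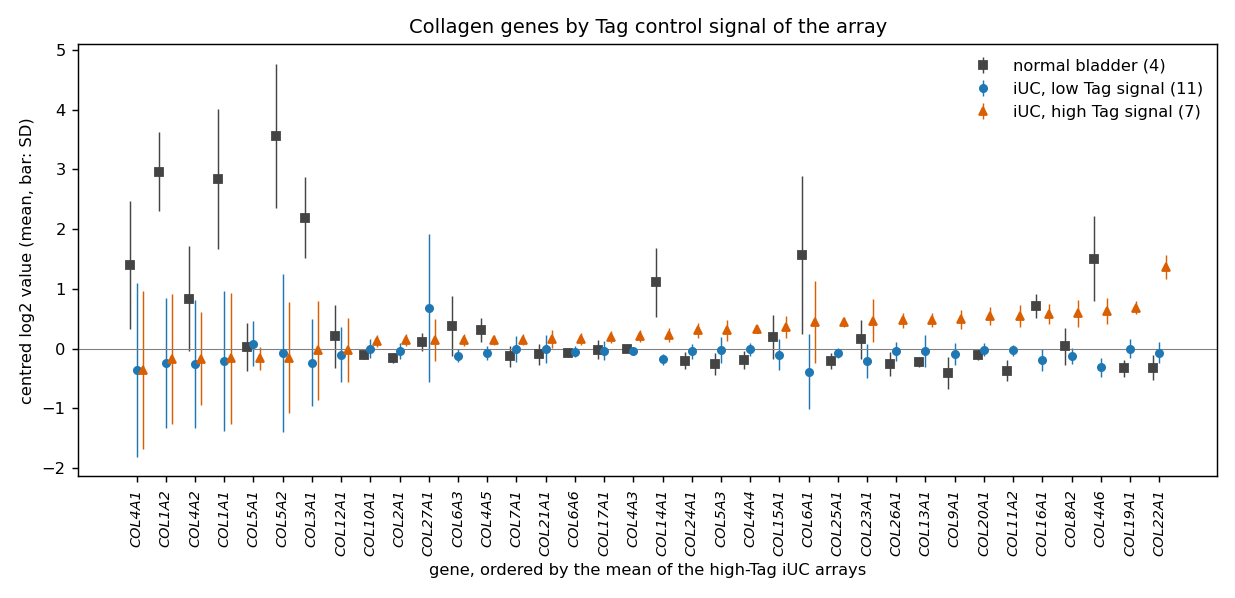
Mean centred log2 value with its standard deviation (vertical axis) of each of the 36 collagen genes (horizontal axis, ordered by the mean of the high-Tag tumors) in 4 normal bladder samples (squares), 11 low-Tag tumors (circles) and 7 high-Tag tumors (triangles). Circles and triangles coincide for COL4A1, COL1A2, COL1A1 and COL5A2 on the left, and part for COL19A1 and COL22A1 on the right.

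The genes that fold, process, bind and cut collagen were counted in 4 lists with 46 measured members, of which 4 (8.70%) were called lower, near the 8.64% of all genes, 42 were not called and 0 were called higher. At an unadjusted p under 0.05, 7 (15.2%) were higher and 14 (30.4%) lower, against 27.0% and 21.7% of all genes. Among 12 genes of propeptide processing and cross-linking, PCOLCE2 and PCOLCE, enhancers of the cleavage of the fibrillar procollagen end, were called lower. Their log2 fold changes were -3.02 (SE 0.27, 8.09-fold, limma adjusted p = 4.04e-08) and -2.63 (SE 0.28, 6.20-fold, limma adjusted p = 4.03e-07). In both the groups did not overlap. The standard deviations were 1.26 and 0.93 in normal bladder against 0.16 and 0.41 in iUC, so these SE are likely too small. BMP1, the protease that PCOLCE2 and PCOLCE assist, stood at -0.07 (limma adjusted p = 0.74) and the cross-linking enzyme LOX at -0.56 (limma adjusted p = 0.0184), below 2-fold. The list median was -0.05.

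Among 17 genes of hydroxylation and folding, FKBP14, a prolyl isomerase of the endoplasmic reticulum, was called lower at -1.19 (SE 0.19, limma adjusted p = 8.48e-05), and the median was -0.10. SERPINH1, the collagen chaperone HSP47, stood at -0.77 (limma adjusted p = 0.0982). Among 9 receptors, DDR2, a kinase that binds fibrillar collagens, was called lower at -1.75 (SE 0.28, 3.35-fold, limma adjusted p = 7.05e-05). DDR1, its epithelial relative, stood at 0.89 (limma adjusted p = 0.0293) without reaching 2-fold, and the median of the list was 0.05. The standard deviations of FKBP14 and DDR2 were 0.75 and 1.11 in normal bladder against 0.22 and 0.32 in iUC, so their SE are likely too small. Of 8 enzymes of collagen breakdown, 0 were called by limma, with 1 higher and 1 lower at an unadjusted p under 0.05 and a median of 0.06. The largest difference there was that of the collagenase MMP13, at 1.12 (SE 0.62, limma adjusted p = 0.154).

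Smooth muscle and fibroblast markers mostly moved in the same direction, and endothelial and pericyte markers did so in part. Of all genes, 8.64% were called lower and 3.68% higher. In bulk samples, fewer cells of a type and less RNA per cell cannot be told apart. Of 10 smooth muscle markers, 8 were lower, led by MYL9 (-6.11), CNN1 (-5.83) and DES (-5.60), and the mean of the list was 3.08 to 4.62 in normal bladder against -0.69 to 1.66 in iUC. Of 10 fibroblast markers other than collagens, 6 were lower and 1 (PDGFRA, 1.96) was higher, led by DCN (-3.40), DPT (-3.24) and CDH11 (-2.91), with list means of 0.74 to 1.93 against -0.81 to 0.58. Of 6 activated fibroblast markers, 5 were lower, led by TNC (-3.95), THBS2 (-2.79) and POSTN (-2.25), with means of 1.18 to 2.57 against -0.35 to 0.81. Of 9 endothelial markers, 3 were lower, EMCN (-2.33), KDR (-1.46) and CLDN5 (-1.03), with overlapping means of 0.29 to 1.54 and -0.49 to 1.41. TIE1 (0.80) and CDH5 (0.19) had positive values and were not called. Of 6 pericyte markers 1 was lower, MCAM (-1.55), with means of 0.07 to 1.04 and -0.25 to 0.50. Among them NOTCH3 had a positive value (0.16) and was not called.

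Urothelium markers moved the other way, 7 of 13 being higher in iUC, led by CDH1 (3.07), KRT8 (2.47) and KRT7 (2.09), with list means of -3.36 to -0.26 in normal bladder and -1.38 to 0.73 in iUC. None of 5 basal urothelium markers (-0.47 to 0.69 in normal bladder and -0.35 to 1.03 in iUC), 10 leukocyte markers (-0.13 to 0.82 and -0.32 to 0.89) or 4 Schwann cell markers (-0.14 to -0.04 and -0.19 to 0.63) was called. Of 5 adipocyte markers, 1 was higher (ADIPOQ, 1.45), with means of -0.52 to 0.39 and -0.84 to 1.56. Centred values do not show whether any of these markers was near background. The part of the makeup of the samples in the collagen differences was not tested.

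Marker means were given for tumors at the ends of the order of COL1A1, COL1A2, COL3A1, COL5A2, COL4A1 and COL4A2, with no test. This order does not hold for all 36 collagens. Over these, replicate 5 was the highest tumor in 13 genes and replicate 12 in 7. The lowest tumor was replicate 15 in 16 genes and replicate 12 in 5. iUC replicate 12, the tumor with the highest type I and type IV chains, had the highest endothelial mean (1.41) and activated fibroblast mean (0.81) of the tumors, while its fibroblast mean (0.50) was not the highest, that of replicate 6 being 0.58. iUC replicate 7, the lowest for COL1A1 and COL1A2, had the lowest fibroblast mean (-0.81). iUC replicate 15, the lowest for COL3A1, COL5A2, COL4A1 and COL4A2, had an endothelial mean of -0.490, close to the lowest tumor (-0.493 in replicate 1). Its activated fibroblast mean of -0.32 was close to the lowest, -0.35 in replicate 14. Its smooth muscle mean of 1.04 was exceeded only by replicate 5 (1.66), and its fibroblast mean was -0.03. Among the normal samples, replicate 2 was the lowest in 24 of the 36 collagens and also had the lowest smooth muscle (3.08) and fibroblast (0.74) means and the highest urothelium mean (-0.26). How often it was the lowest over all genes was not counted, so the 24 cannot be read as particular to collagens.

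Sample descriptions have endings of 2 kinds, and normal bladder replicate 1 shares its ending with the 18 iUC samples while the other 3 normal samples share the other. With the ending as a block, 3 collagens were called lower (COL1A1, COL6A1 and COL6A3), and COL1A2, COL3A1, COL5A2, COL4A6 and COL14A1 were not. Their log2 fold changes in that fit were -3.23 (SE 1.01), -2.43 (SE 0.75), -3.70 (SE 1.17), -1.01 (SE 0.53) and -1.12 (SE 0.32), with limma adjusted p of 0.111, 0.102, 0.114, 0.588 and 0.0586, so that for all but COL4A6 the fold change was about as large and the error wider. What the ending stands for is not stated, and this fit compares the tumors with 1 normal sample.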

How the data were processed

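RNA from 18 iUC and 4 normal bladder samples was hybridised to Affymetrix Canine 2.0 arrays. The authors processed the scans in GeneSpring and deposited log2 values of 43035 probe sets, centred on each probe set's median over the 22 arrays. The normalization between arrays was not given in the sources used here, and no expression level can be recovered, so no filter on low values was applied. After 111 control probe sets were removed, 42924 remained, of which 29254 had 1 symbol, 439 several (1 of them a collagen) and 13231 none. The reference gene table held the Entrez number of 27680 and changed 0 symbols. Averaging the probe sets of a symbol gave 15115 genes.

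The 2 groups entered lmFit and eBayes of limma 3.58.1 (R 4.3.3) without covariates. Correlations were tested with 5040 exact permutations for 7 samples and 100000 random ones for 11, in Python 3.11.15 with numpy 2.4.6 and pandas 2.3.3. Figures were drawn with matplotlib 3.10.9. The members, classes, pathway lists and markers were chosen with earlier results of these data known. Genes named were every called collagen, the highest and lowest of each class, the chains COL1A1, COL1A2, COL3A1, COL4A1, COL4A2, COL6A1, COL6A3, COL7A1, COL14A1, COL15A1 and COL17A1, both chains of a pair, and the called members of other lists with the 3 largest changes. Others were named after their values were seen. COL6A2 and COL18A1, also in that rule, had no probe set of their own. Alternative settings were array weights, quantile normalization, subtraction of each array's 75th percentile, the median or most variable probe set of a gene, omission of the genes of lowest spread, blocks for replicate number and label ending, replicates 3 and 4 as 1 sample, low-Tag or high-Tag tumors alone, an unpaired test of each gene, and leaving out each normal sample. Data were simulated for the comparison of 18 with 4 samples over 15115 genes. The code recovered 84%, 96%, 96% and 100% of 50 genes changed by 1.5, 2, 3 and 4 on the log2 scale. There were 2 false calls in all. The simulated samples were independent, with the same variance in both groups, unlike the data. These rates thus test the code and do not show how many calls here are false or missed. No sequence or coordinate is given, since none was analysed here.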

Additional observations from a re-analysis of the deposited data

Results flagged for a closer look

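COL4A3, a basement membrane collagen chain, had a normal bladder sample that stood apart from the others. Its values in normal bladder replicates 1 to 4 were -0.03, -0.03, -0.03 and 0.04, so that the gap of replicate 4 to its nearest neighbour was 0.97 of the group's whole range, above Dixon's 95% critical value for 4 samples. Chance alone gives such a gap in about 1 of 20 groups, and 36 collagens were examined. The gap is small on the log2 scale, and COL4A3 was not called.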

How the results depend on the processing

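The 7 called collagens kept a negative log2 fold change in all 17 alternatives. COL1A1, COL1A2, COL3A1 and COL5A2 each lost the call in at most 2 of them, all with a replicate block or the label ending as a block, COL4A6 lost it in 2, COL6A1 in 4 and COL14A1 in 7. The count of collagens called lower was 11 with the most variable probe set of each gene, 3 with the replicate block, 3 with the label ending as a block, 5 after quantile normalization, where COL6A1 and COL14A1 were lost, and 6 to 9 when 1 normal sample was left out (9 without replicate 2, 6 without replicate 1, where COL6A1 was lost, and 6 without replicate 3, where COL14A1 was lost). The count called higher was 2 with the most variable probe set and 2 in the high-Tag tumors. The replicate numbers do not pair the samples, since the normal samples came from dogs without tumors. Same-numbered samples deviated together at correlations of -0.166 to 0.131. For normal bladder replicate 4, the 0.131 with iUC replicate 4 was its highest with any tumor. With the replicate block COL1A1, COL3A1, COL6A1 and COL14A1 were not called.

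In the pathway lists, the count called higher was 1 with 75th percentile scaling, 6 with array weights, 1 with the median of probe sets, 4 with the most variable probe set, 3 in the low-Tag and 1 in the high-Tag tumors, and 0 to 2 with a normal sample left out (2 without replicate 1, 1 without replicate 2). The count called lower was 7 with array weights, 1 with the replicate block, 10 in the high-Tag tumors, and up to 7 with a normal sample left out (without replicate 2). The median of basement membrane collagens was -1.20 with the most variable probe set, that of FACIT collagens 0.45 in the high-Tag tumors, and that of transmembrane collagens 0.0292 with the median of probe sets, 0.0588 in the low-Tag and 0.49 in the high-Tag tumors.

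The correlation of COL1A1 with COL1A2 in the 7 high-Tag samples was 0.785 with the most variable probe set (exact permutation, adjusted p = 0.0536). That of COL4A3 with COL4A4 was -0.0914 in the low-Tag and -0.0501 in the high-Tag samples after quantile normalization, and 0.784 (exact permutation, adjusted p = 0.05) in the high-Tag samples with the median of probe sets. Scaling to the 75th percentile moved the median of all genes by 0.116. Over all 36 collagens, signs turned in 9 genes that were not called in those settings. With the median of probe sets COL16A1 was 0.250, COL25A1 -0.0122 and COL27A1 -0.162. COL15A1 was 0.00553 with 75th percentile scaling, 0.153 with the median of probe sets and 0.175 in the high-Tag tumors. COL17A1 was -0.157 with the ending as a block and -0.0199 in the low-Tag tumors. COL23A1 was 0.0144 with 75th percentile scaling, 0.158 with the replicate block, 0.0498 with the ending as a block, 0.309 in the high-Tag tumors and -0.200 to 0.0471 when a normal sample was left out (above 0 without replicate 4). COL4A3 was -0.0341 in the low-Tag tumors. COL5A1 was 0.0771 with 75th percentile scaling, 0.0407 with the median of probe sets, 0.00154 with replicates 3 and 4 as 1 sample, 0.0571 in the low-Tag tumors, and -0.232 to 0.0735 when a normal sample was left out (above 0 without replicates 1 and 4). COL8A2 was -0.00342 with array weights, -0.0157 with the ending as a block and -0.158 in the low-Tag tumors. Causes were not tested. The 4 normal samples and values without a level limit what can be read from these data.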
